A study of Mus musculus with 6 samples.

Results

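The 10 genes described here carry glucose into the cell and through the steps of glycolysis that hexokinase, phosphofructokinase and pyruvate kinase catalyze, together with the reversible isomerase step that follows hexokinase. They are the glucose transporters Slc2a1 and Slc2a3, the hexokinases Hk1 and Hk2, glucose-6-phosphate isomerase Gpi1, the phosphofructokinases Pfkl, Pfkm and Pfkp, and the pyruvate kinases Pkm and Pklr. They were taken by name, for their role and not by a rule on their values, though with earlier results of these data known. They come from the 48709 genes of the count table, and all 10 had enough counts to be tested.

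RNA-Seq was performed on G1E-ER4 cells, red cell precursors of the mouse that were grown out of embryonic stem cells. Their GATA-1, the master regulator of red cell genes, comes as a transgene joined to the hormone-binding part of the estradiol receptor, and it becomes active when tamoxifen is added. Cells received the CHD4-APR peptide, made of the aliphatic stretch of an aggregation-prone region of the chromatin remodeler CHD4, or the CTRL peptide, a stretch of alanines, and both peptides were joined to the Tat sequence that carries them into cells. Cells were exposed to 10 µM peptide for 2 h and then to tamoxifen as well for a further 28 h, and polyadenylated RNA was sequenced from 3 libraries per group. All 6 libraries therefore share the line, the fusion protein, Kit ligand, erythropoietin at 2 U/mL and tamoxifen, whose concentration is 100 nM in the growth protocol and 100 µM in the series design. The line is a single model with a transgene, and nothing in the labels says that the libraries of a group came from separate cultures, so the p-values measure only the spread between these libraries. Total counts were between 41687482 and 49784177 per library.

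Cells take up glucose through facilitative transporters of the SLC2A (GLUT) family and trap it as glucose 6-phosphate with a hexokinase. Phosphofructokinase then makes fructose 1,6-bisphosphate, and pyruvate kinase makes pyruvate and ATP at the end of the pathway. These steps after entry are close to irreversible and are points at which flux can be controlled. Several genes encode each step, and the isoform used is a mark of the cell: mature red cells have no mitochondria and live on glycolysis, and their pyruvate kinase is the R form made from Pklr.

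The promoters of Slc2a1, Pkm and Pklr are shown because they belong to the isoforms of glucose entry and pyruvate kinase whose shares are compared further on, and each holds a core motif of hypoxia-inducible or of GATA factors. The promoters, from RefSeq on GRCm38.p6, run from 250 bases before to 50 bases after the start of a transcript. Of the 10 genes, 9 matched the table, with 15 promoters between them, and the entry missing was that of Slc2a3. In the first pair of sequences the capitals mark ACGTG, the core bound by hypoxia-inducible factors, on either strand, so that the opposite strand reads CACGT. In the third they mark GATAA, the core bound by GATA factors, and CACCC, the core bound by KLF and SP factors, on either strand.
Slc2a1, chr4:119108495-119108794, + strand: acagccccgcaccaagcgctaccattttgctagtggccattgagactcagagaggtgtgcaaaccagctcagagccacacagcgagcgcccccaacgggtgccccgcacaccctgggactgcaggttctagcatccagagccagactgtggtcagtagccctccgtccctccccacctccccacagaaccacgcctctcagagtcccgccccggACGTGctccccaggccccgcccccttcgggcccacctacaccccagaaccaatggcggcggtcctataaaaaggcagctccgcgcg
Pkm, downstream promoter, chr9:59656977-59657276, + strand: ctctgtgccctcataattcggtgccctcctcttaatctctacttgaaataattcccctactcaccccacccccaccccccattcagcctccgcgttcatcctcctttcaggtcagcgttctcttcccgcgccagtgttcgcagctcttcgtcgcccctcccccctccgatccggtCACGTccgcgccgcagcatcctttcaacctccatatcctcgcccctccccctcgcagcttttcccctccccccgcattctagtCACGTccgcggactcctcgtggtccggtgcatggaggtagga
Pklr, upstream promoter, chr3:89135892-89136191, + strand: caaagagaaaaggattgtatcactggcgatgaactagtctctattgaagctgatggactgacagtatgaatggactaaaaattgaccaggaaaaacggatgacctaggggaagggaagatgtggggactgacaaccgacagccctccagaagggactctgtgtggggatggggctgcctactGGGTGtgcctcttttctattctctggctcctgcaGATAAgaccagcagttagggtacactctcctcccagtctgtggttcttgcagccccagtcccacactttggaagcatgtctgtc

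The Slc2a1 promoter held 1 ACGTG, 36 bases before the start, and 3 CACCC, which are not marked in it. The downstream promoter of Pkm held 2 ACGTG, 75 bases before the start and 8 bases after it, and 3 CACCC, also not marked. The upstream promoter of Pkm, not printed here, held 2 GATAA, 234 and 31 bases before the start, and 0 ACGTG. The upstream promoter of Pklr, which begins at the 5′ end of the gene, held 1 GATAA, 34 bases before the start, and 1 CACCC, 68 bases before it. Among the 15 promoters, ACGTG was found in 6, from Slc2a1, Hk1, Hk2, Pfkm and Pkm, beside 19.6% of the 32851 promoters in the table. GATAA was found in 6, from Hk1, Pfkm, Pkm and Pklr, beside 25.4% of all. CACCC was found in 9, beside 57.5% of all, and CACGTG, the E-box, whose letters contain ACGTG, in 1 promoter of Pfkm, beside 7.15%. Promoters 2 and 3 of Pfkm, numbered along the gene, overlap and share 1 GATAA and 1 CACCC, each counted in both. All of these are matches of letters only.

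With the CHD4-APR peptide, 6 of the 10 genes were lower and 1 was higher. Slc2a1, Hk1, Gpi1, Pfkl, Pfkm and Pkm fell by 10.2 to 18.8%, Slc2a3 rose by 35.3%, and Hk2, Pfkp and Pklr did not pass the test. Genes were compared with edgeR's quasi-likelihood test at a Benjamini-Hochberg FDR under 0.05, which called 4871 of the 12722 genes tested, or 38.3%. Among those tested, 2601 genes (20.4%) were higher with CHD4-APR and 2270 (17.8%) lower, against 2959 and 1474 with library size in place of TMM scaling. With a correction for exonic length and GC content, 26.5% of all genes were called, 13.9% higher and 12.6% lower, and of the 10 genes 2 were higher and 5 lower. The median log2 fold change of the 10 genes was -0.22, against -0.012 over all genes tested. For 7 of the 10 genes the libraries of the groups did not overlap, beside 49.9% of all genes, and 0 of the 10 passed the FDR together with a 1.5-fold change in edgeR, DESeq2 or limma-voom, or at an unadjusted edgeR p under 0.05 with that fold, while 4.23% of all genes passed both limits in edgeR. In bulk RNA, a lower level in each cell and fewer cells that express the gene cannot be told apart.

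Levels are given as normalized CPM, read counts relative to library size after scaling by edgeR's TMM method. Slc2a3 (ENSMUSG00000003153) encodes GLUT3, a transporter with a high affinity for glucose, on chromosome 6 from 122727809 to 122801640 of the minus strand (GRCm38). Its level was 234, 240.1 and 238 normalized CPM with CTRL, and 315, 328 and 321 with CHD4-APR. Every CHD4-APR library was above every CTRL library, with a gap far wider than the spread within either group. The mean rose from 237 ± 3.12 to 321 ± 6.60 normalized CPM (SD, n = 3), a log2 fold change of 0.44 (SE 0.041, edgeR FDR = 1.35e-06), and 13.9% of all genes tested had a larger change in either direction. The change was 0.33 with the length and GC correction (edgeR FDR = 1.04e-05).

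Slc2a1 (ENSMUSG00000028645) encodes GLUT1, the transporter found in most dividing cells and in the erythroid lineage, on chromosome 4 from 119108711 to 119137983 of the plus strand. Its level was 49.2, 48.5 and 49.97 normalized CPM with CTRL and 37.8, 48.2 and 39.2 with CHD4-APR. The second CHD4-APR library lay just under the lowest CTRL library, while the other two lay well below. The log2 fold change was -0.24 (SE 0.073, edgeR FDR = 0.0159). This call was lost with the length and GC correction, where the value was -0.12 (edgeR FDR = 0.247), and with library size in place of TMM (edgeR FDR = 0.0627). It was also lost when CTRL replicate 3 (edgeR FDR = 0.0604), CHD4-APR replicate 1 (0.0978) or CHD4-APR replicate 3 (0.0862) was left out.

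Hexokinases phosphorylate glucose. Hk1 (ENSMUSG00000037012), the form of red cells and brain, lies on chromosome 10 from 62268855 to 62379908 of the minus strand and was, by counts, the most abundant of the 10 genes. It measured 1013, 1029 and 997 normalized CPM with CTRL and 814, 865 and 845 with CHD4-APR, without overlap. Its log2 fold change was -0.27 (SE 0.042, edgeR FDR = 1.25e-04), and it stayed below 0 and past the threshold in all 17 alternative fits, between -0.28 and -0.22.

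Hk2 (ENSMUSG00000000628), the insulin- and hypoxia-responsive form of muscle and many tumors, lies on chromosome 6 from 82725025 to 82774454 of the minus strand and was nearly silent beside Hk1. It had 155, 184 and 160 reads with CTRL and 81, 197 and 141 with CHD4-APR, that is 3.66, 3.73 and 3.86 against 1.81, 4.61 and 2.99 normalized CPM. The CTRL libraries sat close together, and the CHD4-APR libraries lay on both sides of them. The log2 fold change of -0.26 had an SE of 0.22 (edgeR FDR = 0.374) and hung on single libraries: it was -0.64 and called without CHD4-APR replicate 2 (edgeR FDR = 0.0159), and 0.015 without CHD4-APR replicate 1.

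Gpi1 (ENSMUSG00000036427), which turns glucose 6-phosphate into fructose 6-phosphate, lies on chromosome 7 from 34201330 to 34230336 of the minus strand. It was at 402, 383 and 385 normalized CPM with CTRL and at 306, 339 and 326 with CHD4-APR. The groups did not overlap, and the log2 fold change of -0.27 (SE 0.046, edgeR FDR = 2.51e-04) was of the same size as that of Hk1.

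Phosphofructokinase is a tetramer of liver-type, muscle-type and platelet-type subunits. Pfkl (ENSMUSG00000020277), the liver type, lies on chromosome 10 from 77986947 to 78010083 of the minus strand. Its CTRL libraries were at 267, 263 and 255 normalized CPM and its CHD4-APR libraries at 194, 225 and 217. The groups were well apart, and the log2 fold change was -0.30 (SE 0.052, edgeR FDR = 2.80e-04).

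Pfkm (ENSMUSG00000033065), the muscle type, which together with Pfkl forms the enzyme of red cells, lies on chromosome 15 from 98092589 to 98132451 of the plus strand. It measured 73.9, 66.0 and 71.6 normalized CPM with CTRL and 63.7, 61.4 and 64.7 with CHD4-APR. The groups did not overlap, but the lowest CTRL library was close to the CHD4-APR libraries. The log2 fold change was -0.16 (SE 0.052, edgeR FDR = 0.0265). This call was lost with library size in place of TMM (edgeR FDR = 0.108), with the length and GC correction (-0.021, edgeR FDR = 0.766), and without CTRL replicate 1 or 3 or any of the CHD4-APR libraries in turn, where the edgeR FDR was between 0.0520 and 0.133.

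Pfkp (ENSMUSG00000021196), the platelet type, lies on chromosome 13 from 6579768 to 6648777 of the minus strand. It was at 487, 438.5 and 456 normalized CPM with CTRL and at 471, 443 and 429.5 with CHD4-APR. The ranges overlapped, and the log2 fold change was -0.041 (SE 0.049, edgeR FDR = 0.549). Pfkp has the longest exonic sequence of the 10 genes, 13401 bases against a median of 3688 over the genes with a known length, and with the length and GC correction it was called lower, at -0.24 (edgeR FDR = 0.00158).

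Pkm (ENSMUSG00000032294), which encodes the M1 and M2 forms of pyruvate kinase by alternative splicing, lies on chromosome 9 from 59656368 to 59679375 of the plus strand. Counts per gene do not separate the splice forms. It measured 979, 900.3 and 929 normalized CPM with CTRL and 802, 817 and 815 with CHD4-APR. The groups did not overlap, and the CHD4-APR libraries were more tightly grouped than the CTRL libraries. The log2 fold change was -0.21 (SE 0.043, edgeR FDR = 0.00131), and -0.10 (edgeR FDR = 0.0283) with the length and GC correction.

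Pklr (ENSMUSG00000041237), the gene of the liver and red cell forms, lies on chromosome 3 from 89136142 to 89146784 of the plus strand. It had 131, 114 and 119.5 normalized CPM with CTRL and 136, 117 and 125 with CHD4-APR. The ranges overlapped almost wholly, and the log2 fold change was 0.055 (SE 0.059, edgeR FDR = 0.498). With the length and GC correction it was called higher, at 0.19 (edgeR FDR = 0.00894).

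**Figure D1:**
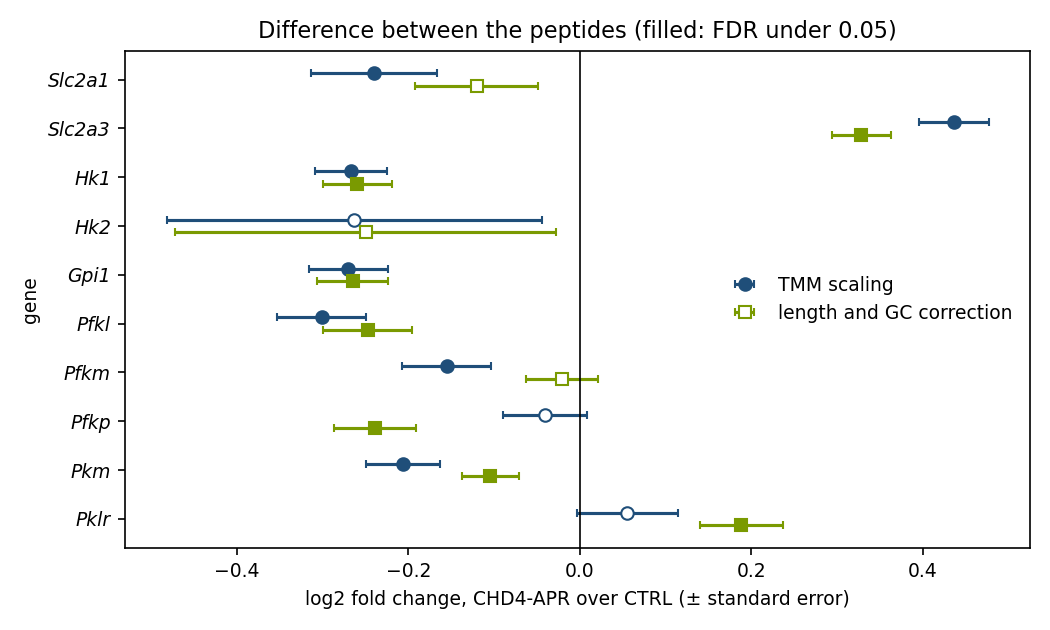
Log2 fold change of each gene, CHD4-APR over CTRL, with bars of 1 standard error, after TMM scaling and with the length and GC correction. Filled symbols have an edgeR FDR under 0.05, and Slc2a1, Pfkm, Pfkp and Pklr are filled under only one of the treatments.

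Several genes share exonic bases with a neighbor, and the kit does not mark strand. Pfkp shares 748 bases with the end of Pitrm1, which had 60338 counts over the 6 libraries and a log2 fold change of -0.0047 (SE 0.047). Pfkm shares 18 bases with Senp1, which had 15325 counts and was higher with CHD4-APR (log2 fold change 0.17, edgeR FDR = 0.0120), and 341 bases, 10.2% of its exonic length, with Gm26513, which had 575 counts. Pklr shares 711 bases, 22.0% of its exonic length, with Hcn3, which had only 224 counts. The neighbors of Slc2a1, Hk1 and Gpi1 had 69 to 1183 counts, and that of Pkm was absent from the table used here. How reads in shared bases were assigned is not given in the sources used here.

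To compare genes with each other, levels were divided by exonic length, in normalized CPM per kb. In the CTRL libraries the order was Pkm (187 ± 8.0), Hk1 (119 ± 1.85), Gpi1 (60.5 ± 1.59), Pfkl (39.2 ± 0.939), Pklr (37.5 ± 2.65), Pfkp (34.4 ± 1.83), Slc2a3 (32.8 ± 0.430), Pfkm (21.1 ± 1.23), Slc2a1 (14.04 ± 0.207) and Hk2 (0.628 ± 0.0175; SD, n = 3). From Pfkl to Slc2a3 each gene overlapped the next in its libraries, so neighbors among these 4 are not told apart, although every Pfkl library was above those of Pfkp and Slc2a3 and every Pklr library above those of Slc2a3. Every other pair of neighbors in the order was apart. In the CHD4-APR libraries Slc2a3, at 44.3 ± 0.910, lay above all libraries of Pklr (38.9 ± 2.92), Pfkp (33.4 ± 1.58) and Pfkl (31.8 ± 2.43), of which Pfkp and Pfkl overlapped. Pfkl was below Pfkp in CHD4-APR replicate 1, at 29.1 against 35.1, and above it in the other two. These places rest on the exonic length of each gene.

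**Figure D2:**
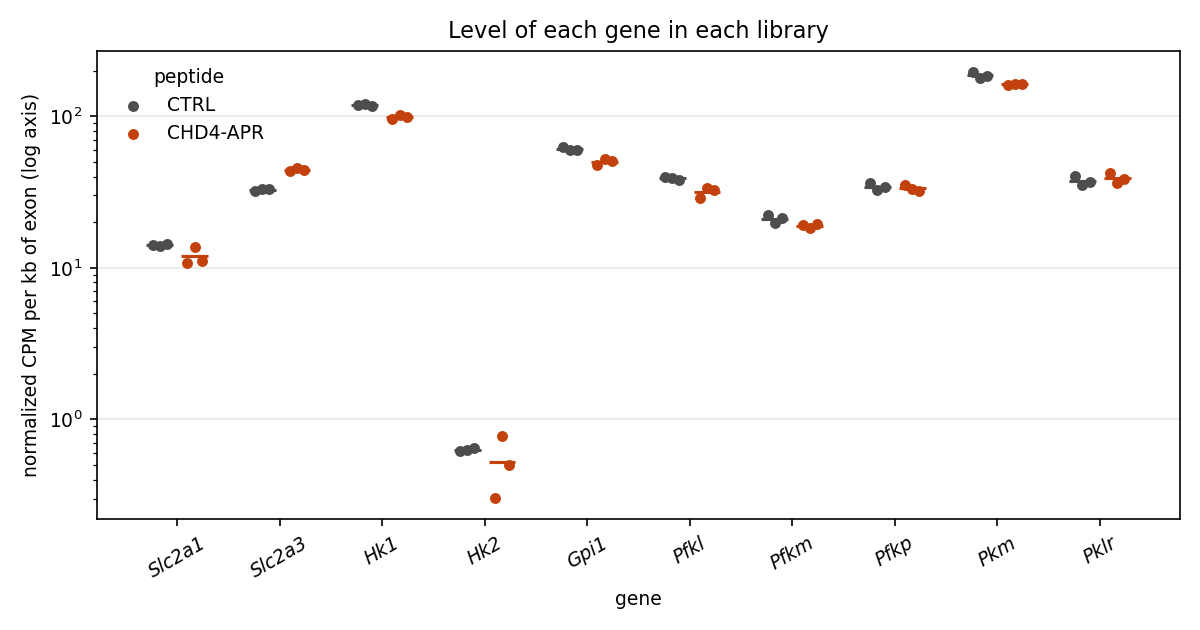
Level of each of the 10 genes in normalized CPM per kb of exonic length (log axis), one point per library and a line at each group mean, with CTRL on the left of each pair. Slc2a3 is the gene whose CHD4-APR libraries (43.4 to 45.3) lie above its CTRL libraries (32.3 to 33.1), and Hk2 is far below the rest, with CHD4-APR libraries on both sides of its CTRL libraries.

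Which isoform made up most of the RNA of each step was read from the shares, the level per kb of one isoform over the sum of the step. Protein was not measured. At glucose entry, Slc2a1 made up 30.3, 29.5 and 30.3% of the pair with CTRL and 19.9, 23.3 and 20.1% with CHD4-APR. Slc2a3 was thus the larger part in all 6 libraries and larger still with CHD4-APR. The share of Slc2a1 went from 30.0 ± 0.472% to 21.1 ± 1.89% (SD, n = 3), a difference of -8.91 percentage points (two-sided exact permutation p = 0.1), and the ratio of Slc2a3 to Slc2a1 per kb went from 2.33 ± 0.0528 to 3.76 ± 0.407. With 3 libraries against 3, 0.1 is the smallest p this test can give, so no share or sum can pass 0.05, and adjusted over the 10 shares and sums tested it was 0.125. The size of the difference depended on the processing: it was -5.93 points with the length and GC correction, -5.73 points by coding length (17.2% against 11.5%), -5.72 points with no length and -5.10 points with all detected family members in the sum.

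Other members of the transporter family were present as well. Slc2a8, an intracellular transporter, was at 13.5 normalized CPM per kb with CTRL and 12.6 with CHD4-APR, and Slc2a4, the insulin-responsive GLUT4, at 5.75 and 5.03. The 9 listed family members together held 30.1% of the enlarged sum in CTRL and 24.7% in CHD4-APR libraries. With them included, the log2 ratio of the sum for glucose entry, CHD4-APR over CTRL, was 0.16, against 0.26 for Slc2a1 and Slc2a3 alone.

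At the hexokinase step Hk1 held 99.5% in both groups, with a difference of 0.0016 points (exact permutation p = 1). Phosphofructokinase was mixed. Pfkl made up 40.6, 42.9 and 40.7% with CTRL and 34.9, 39.6 and 38.8% with CHD4-APR, a difference of -3.64 points (exact permutation p = 0.1, adjusted 0.125). Pfkp made up 36.9, 35.6 and 36.4% with CTRL and 42.2, 38.8 and 38.2% with CHD4-APR, a difference of 3.42 points (exact permutation p = 0.1, adjusted 0.125). Neither pair of groups overlapped, but Pfkl stayed ahead of Pfkp in CHD4-APR replicates 2 and 3, and only in replicate 1 did Pfkp lead. Without CHD4-APR replicate 1 the differences were -2.21 points for Pfkl and 2.18 points for Pfkp. They also depended on the processing. With the length and GC correction the differences were -1.54 points for Pfkl and -1.13 points for Pfkp, both with overlap, and the share of Pfkm was 2.67 points higher. Which isoform led depended on the length as well, since by coding length Pfkp held 58.0% and Pfkl 33.1% already in the CTRL libraries. The share of Pfkm was 22.3 ± 0.710% with CTRL and 22.5 ± 0.811% with CHD4-APR (exact permutation p = 0.5).

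At the pyruvate kinase step Pkm held 82.9, 83.7 and 83.4% with CTRL and 79.2, 81.8 and 80.9% with CHD4-APR. The share of Pklr was accordingly 16.7 ± 0.386% and 19.3 ± 1.32%, without overlap. The difference in the share of Pkm was -2.68 points (exact permutation p = 0.1, adjusted 0.125), -3.00 points with the length and GC correction and -1.73 points with the length of the longest transcript.

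**Figure D3:**
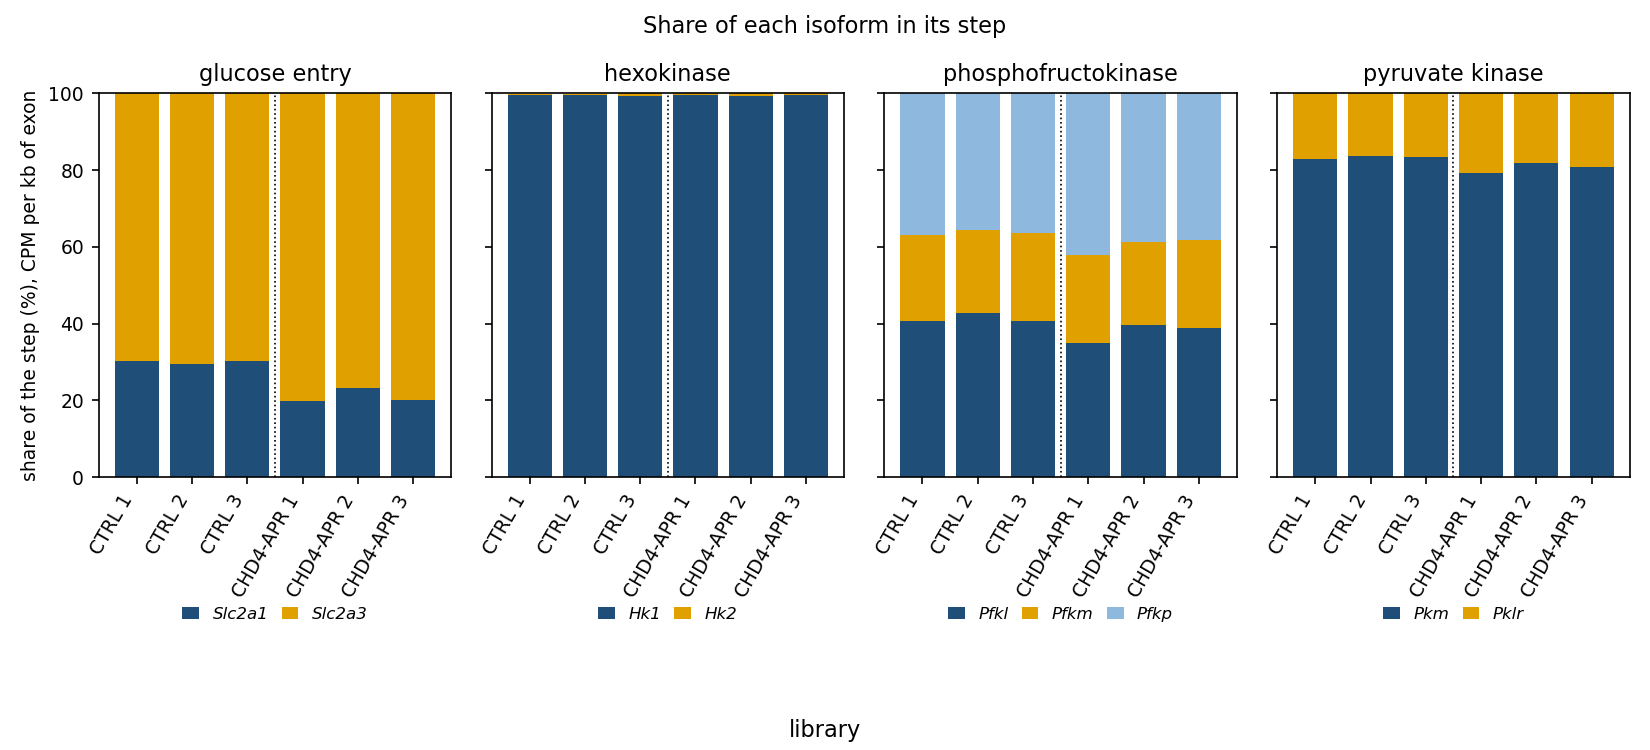
Share of each isoform in its step, in percent of the summed CPM per kb of exonic length, one bar per library and one panel per step. The part of Slc2a1 is smaller in the CHD4-APR libraries (19.9 to 23.3%) than in the CTRL libraries (29.5 to 30.3%), Hk1 fills its panel, and Pfkl and Pkm take a slightly smaller part with CHD4-APR.

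The sums of the steps differed in opposite directions. The transporters together had 46.3, 47.0 and 47.1 normalized CPM per kb with CTRL and 54.2, 59.0 and 55.5 with CHD4-APR, which was 20.1% more. The hexokinases had 119, 121 and 117 with CTRL and 95.7, 102 and 99.6 with CHD4-APR, which was 16.9% less. The sum for entry was thus higher in every CHD4-APR library, and that for phosphorylation lower. The phosphofructokinases went from 94.6 ± 3.44 to 84.1 ± 0.952 and the pyruvate kinases from 225 ± 10.7 to 201 ± 1.45 normalized CPM per kb (SD, n = 3). Each of the 4 sums had an exact permutation p of 0.1 (adjusted 0.125) and no overlap between the groups. Under the length and GC correction the pyruvate kinase sum differed by only -0.052 on the log2 scale.

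The other genes of glucose use were read from 6 lists of 57 genes, of which 37 had enough counts to be tested. Of these, 9 were higher and 11 lower with CHD4-APR, beside the 20.4% and 17.8% of all genes, and their median log2 fold change was -0.082, or -0.0077 with the length and GC correction. The lists differed in direction.

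Lower glycolysis and lactate had the most genes that fell: 10 of the 13 tested were lower and 1 was higher, with a median log2 fold change of -0.32. Ldha, which turns pyruvate into lactate, went from 127 ± 5.65 to 67.9 ± 12.9 normalized CPM (SD, n = 3; log2 fold change -0.91, SE 0.093, edgeR FDR = 2.80e-06). Tpi1, triosephosphate isomerase, fell from 332 to 225 normalized CPM (log2 fold change -0.56, edgeR FDR = 4.69e-06). The gene that rose was Slc16a1, the lactate and pyruvate carrier MCT1, from 37.9 ± 0.722 to 58.2 ± 1.13 normalized CPM (log2 fold change 0.62, SE 0.050, edgeR FDR = 6.60e-07). Slc16a1 and Slc2a3 were the only genes called higher among this list and the 10 genes after TMM scaling, and Pklr joined them with the length and GC correction. With the length and GC correction 7 genes of this list were lower and 1 higher, beside 12.6% and 13.9% of all genes, with a median of -0.16.

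In glucose sensing and uptake control, 5 of 8 tested genes were higher, beside 20.4% of all genes. Egln1 alone was lower (named after its value was seen), beside 17.8%, and the median log2 fold change was 0.27. The list mixes activators of glycolytic genes with Txnip, which lowers uptake, so its counts give no direction of uptake. With the length and GC correction 6 were higher, beside 13.9% of all genes, and the call of Egln1 was lost (-0.14, edgeR FDR = 0.186). Hif1a, the oxygen-regulated subunit of a transcription factor that activates glycolytic genes under hypoxia, rose from 39.2 ± 5.23 to 68.6 ± 4.88 normalized CPM (SD, n = 3; log2 fold change 0.80, SE 0.079, edgeR FDR = 2.07e-06). Txnip, an arrestin-like protein that lowers glucose uptake by removing GLUT1 from the surface, rose from 89.7 ± 9.46 to 130.4 ± 7.15 normalized CPM (log2 fold change 0.54, edgeR FDR = 1.23e-05). Myc, another activator of glycolytic genes, had a log2 fold change of 0.33 (SE 0.13, edgeR FDR = 0.0486), and this call was lost with DESeq2 (adjusted p = 0.0663), limma-voom (0.0647) and upper quartile scaling (0.0578), and without CTRL replicate 1 or 3 or CHD4-APR replicate 2 or 3, with an edgeR FDR of up to 0.197.

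In the control of fructose bisphosphate, 1 of 4 tested genes was higher and the other 3 did not pass, with a median log2 fold change of -0.088. Pfkfb2, which sets the level of fructose 2,6-bisphosphate, the activator of phosphofructokinase, rose from 23.4 ± 1.79 to 31.0 ± 1.34 normalized CPM (SD, n = 3; log2 fold change 0.41, SE 0.067, edgeR FDR = 2.06e-04). Its change was 0.26 with the length and GC correction (edgeR FDR = 0.00364), and the median of the list was -0.032. Among the splicing factors that choose between the M1 and M2 exons of Pkm, 2 of 5 were higher. Rbm4 had a log2 fold change of 0.51 (SE 0.13, edgeR FDR = 0.00575), and Hnrnpa1 one of 0.12 (edgeR FDR = 0.0484) that was lost with upper quartile scaling, with the length and GC correction and without every library in turn but CTRL replicate 2. With that correction 1 gene of the list was higher and 2 were lower, beside 13.9% and 12.6% of all genes. The lists of other transporters (4 of 11 tested) and of other glucose phosphorylation and dephosphorylation (3 of 7 tested) had 0 calls in edgeR, DESeq2 or limma-voom, and 0 in edgeR with the length and GC correction; at an unadjusted edgeR p under 0.05 there were 2 (Slc2a4 and Slc5a2, both at lower values) and 0. Slc2a4 was called lower with a replicate block and without CHD4-APR replicate 3. The median log2 fold changes of these lists were -0.15 and 0.027, and -0.015 and 0.019 with the length and GC correction.

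**Figure D4:**
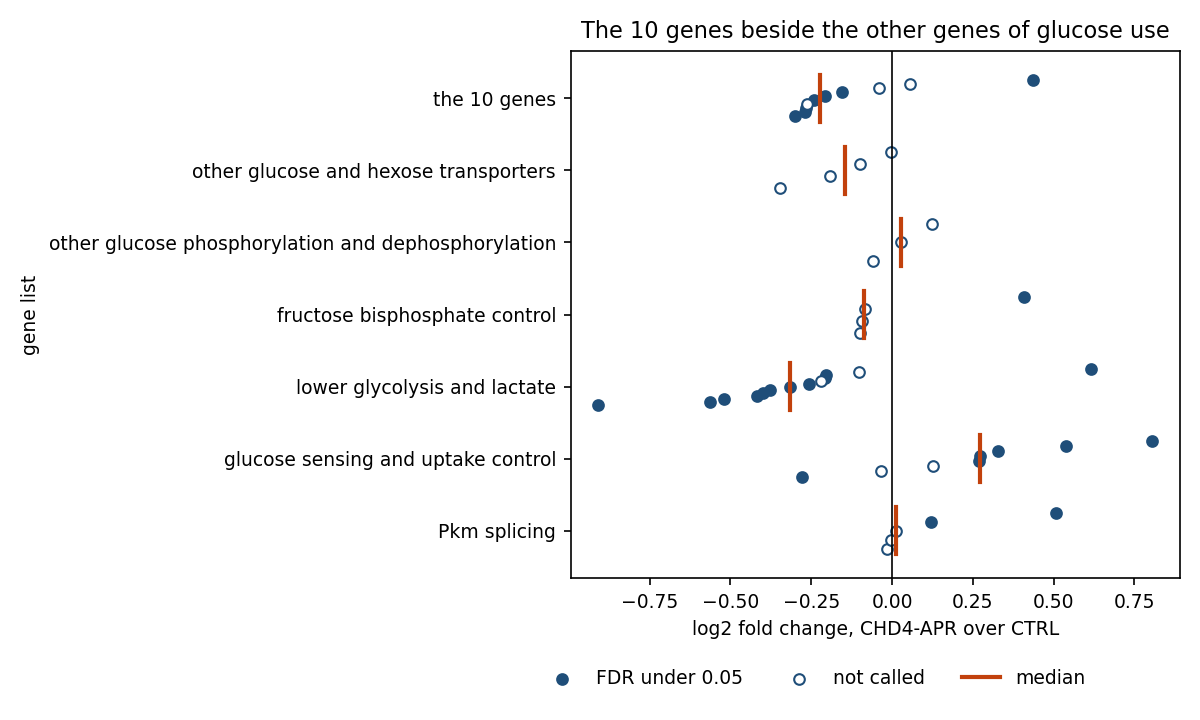
Log2 fold change of the 10 genes and of every tested gene in the 6 pathway lists, one point per gene, filled at an edgeR FDR under 0.05, with the median of each list as a line. The list of lower glycolysis and lactate lies mostly below 0 (median -0.32, or -0.16 with the length and GC correction), and that of glucose sensing and uptake control mostly above it (median 0.27).

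The identity of the cells was read from marker lists. The 11 erythroid markers in the table summed to 70543 to 75920 normalized CPM with CTRL and to 59791 to 63861 with CHD4-APR, where 5 were lower (the 4 adult globin genes and Klf1) and Tfrc was higher. With the length and GC correction 2 were lower (Hbb-bt and Hbb-bs) and 1 was higher (Slc4a1), beside 12.6% and 13.9% of all genes. Hemoglobin genes took 6.04 to 6.45% of the CTRL counts and 5.11 to 5.44% of the CHD4-APR counts. The 4 progenitor markers summed to 22.4 to 25.8 normalized CPM with CTRL and 23.1 to 24.0 with CHD4-APR, mostly from Gata2. The 4 megakaryocyte markers summed to 34.7 to 37.3 and 31.3 to 36.1, mostly from Itga2b. The 6 myeloid and mast cell markers summed to 5.18 to 5.41 normalized CPM with CTRL and 3.93 to 4.18 with CHD4-APR, mostly from Cd68, and the 3 lymphoid markers to at most 0.604. All fibroblast and embryonic stem cell markers (Col1a1, Col1a2, Col3a1, Pou5f1 and Nanog) were at 0. The part of the erythroid and myeloid marker levels in the results for the 10 genes was not tested. With the hemoglobin genes removed before scaling, none of the 10 genes changed its call.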

How the data were processed

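The authors trimmed reads with Cutadapt, aligned them with STAR 2.7.10a to GRCm38 and assigned them to Ensembl genes with featureCounts. The deposited values are raw counts, not normalized. Strand setting and treatment of reads matching several places are not given in the sources used here. Another 2 columns of the table match no sample and were not used. Genes were named, located and measured (union of exons, GC content) with GENCODE M21 on GRCm38, which named 48349 of 48709 genes. All 6 libraries entered the fit.

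Counts were analysed in R 4.3.3 with edgeR 4.0.16 (filterByExpr, TMM, quasi-likelihood F-test, no replicate block, Benjamini-Hochberg over 12722 genes, threshold 0.05), whereas the study used DESeq2. Standard errors were derived from the F statistic. Shares and sums, in CPM per kb, were compared by two-sided exact permutation tests (scipy 1.17.1). The length and GC correction smoothed each library's log2 CPM on length and GC content (mgcv 1.9.3) and passed the trend as offsets. The other alternatives were DESeq2 1.42.0, limma-voom (limma 3.58.1), other scalings, filters, thresholds and gene lengths, hemoglobin genes left out, a replicate block and leaving out each library. The fits were checked on simulated counts. No library was a copy of another of its group by a chi-square comparison of counts.

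The 10 genes and the lists were chosen with earlier results of these data known. Named in each list were up to 3 genes with the largest change among those with an FDR under 0.05 and a mean of at least 1 log2 CPM.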

Additional observations from a re-analysis of the deposited data

How the results depend on the processing

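Hk1, Gpi1, Pfkl, Pkm and Slc2a3 kept their direction and their call in all 17 fits that changed the tool, scaling, filter, correction, block or libraries. Leaving out each library in turn, 5 to 7 of the 10 genes, 16 to 20 of the 37 list genes and 3703 to 4928 of all genes were called. With a 1.5-fold limit 0 of the 10 genes, 3 list genes and 538 genes in all were called, and at an FDR under 0.01 there were 5 of the 10 and 3250 in all. DESeq2 called 4687 genes and limma-voom 4829. The median log2 fold change of the 10 genes was -0.18 with library size alone, with the length and GC correction and with that correction under a replicate block, and between -0.25 and -0.16 without each library. The log2 fold change of Pfkp was 0.0051 with library size alone. Leaving out libraries, Pfkp lay between -0.076 and 7.30e-04, Pklr between -2.19e-05 and 0.11 and Hk2 between -0.64 and 0.015. The difference in the share of Pfkm was -0.141 points by coding length, -0.142 points with no length and between -0.169 and 0.689 points without each library. That of Hk1 lay between -0.102 and 0.117 points without each library. The correction of shares and sums for length and GC content was chosen after seeing the data, and gave -1.13 points for Pfkp. The cause was not tested.

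Same-numbered libraries had correlations of deviations of 0.070, 0.055 and -0.035, and the other pairs had values between -0.081 and 0.034. These small values do not settle whether the numbers pair the libraries, and the main fit used no replicate block. With a replicate block 7 of the 10 genes and 5214 genes in all were called, and 3884 in all with the block and the length and GC correction.

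Depth limits Hk2 most, with 81 to 197 counts per library, and the other 9 genes had at least 1690 counts in each.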
